A study of Mus musculus with 91 samples.

Results

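The comparison described here is that of regulatory T cells (Tregs) taken 1.5 h after an injection of mouse IL-2 with Tregs taken 1.5 h after an injection of PBS. Its members are 8 of the 91 samples of the series, 4 libraries labelled 1.5h-IL2 and 4 labelled 1.5h-PBS, chosen by their titles. Tregs are a kind of CD4 T cell, marked by the protein Foxp3, that keeps immune responses in check. Every mouse was of the strain C57/BL6 and carried a red fluorescent reporter of Foxp3, in the IL-2 and in the PBS group alike, and the cells were sorted from spleen. The labels name the molecule as mIL-2 or control PBS, give no dose for mIL-2, no age and no sex, and do not say whether the libraries of a group came from separate animals. The p-values below therefore measure the spread between these libraries, which may be technical in part. The same table holds 4 libraries from animals given a fusion protein (FP) of IL-2 and its receptor chain CD25, which entered the fit only to share the estimate of the spread. The column name of FP library 2 carries another date than those of the other libraries in that table. The 3 IL-2 and 3 PBS libraries labelled as in vitro at 1.5 h are used at the end to show where the change in animals differed from that in culture.

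IL-2 binds a receptor made of the chains CD25 (Il2ra), CD122 (Il2rb) and the common gamma chain (Il2rg). Tregs carry much CD25 and so bind IL-2 at low concentrations. The receptor activates the kinases JAK1 and JAK3 and the transcription factors STAT5A and STAT5B, which enter the nucleus within minutes, and it also feeds the PI3K, mTOR and RAS-ERK pathways. Known STAT5 targets include the feedback inhibitors of the SOCS family, the survival gene Bcl2, and Il2ra and Foxp3 themselves. PI3K and AKT hold the FoxO transcription factors in the cytoplasm, away from the genes that they keep on in resting T cells. IL-2 signalling is also known to raise Myc, which drives genes for ribosome assembly and biosynthesis.

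The libraries held 12212262 to 15325053 counted reads after IL-2 and 12597834 to 13954839 after PBS. Levels are given as CPM, the read count scaled to library size with TMM factors, and changes are log2 ratios of IL-2 over PBS with their standard error (SE). A gene was called changed at an adjusted p below 0.01 in edgeR's quasi-likelihood test, with Benjamini-Hochberg adjustment over all 16643 genes tested. Libraries of a group differed by more than counting error, with a chi-square of 5.81 to 39.2 per degree of freedom for each pair. The first principal component took 40.3% of the variance and put the IL-2 libraries at 45.19, 12.35, 39.37 and 25.41, against -31.68, -29.42, -30.47 and -30.74 for the PBS libraries. IL-2 library 2 thus lay nearest to the PBS libraries. On the second component, with 23.0% of the variance, PBS library 4 stood apart at 51.15.

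The markers fixed for the cell type were present. Foxp3 averaged 862 CPM after IL-2 and 483 CPM after PBS, Cd4 357 and 435 CPM, and Cd3e 639 and 629 CPM. The markers of NK and CD8 T cells summed to 35.5 to 41.6 CPM after IL-2 and 36.9 to 47.0 CPM after PBS over 10 genes. Markers of B cells (12 genes) summed to 47.8 to 114 CPM after IL-2 and to 55.7 to 95.0 CPM after PBS. Those of neutrophils reached at most 7.66 CPM over the 2 genes in the table. Markers of conventional helper T cells (6 genes) summed to 43.7 to 52.7 CPM after IL-2 and to 60.4 to 80.1 CPM after PBS, so that the groups did not overlap. Among all genes tested singly, 25.6% showed no overlap. Of these 6, edgeR called 0, 3 were lower and 1 higher at an unadjusted p below 0.05, and DESeq2 called 1 lower. Markers of dendritic cells (12 genes) summed to 224 to 650 CPM after IL-2 and to 216 to 593 CPM after PBS, highest in IL-2 library 1 and PBS library 4. Erythroid and platelet markers (8 genes) summed to 11.3 to 23.2 CPM after IL-2 and to 14.2 to 49.0 CPM after PBS. Genes of macrophages and monocytes were far more abundant. Their 17 markers summed to 3082, 587, 1859 and 1272 CPM in the IL-2 libraries, against 1028, 1026, 692 and 2532 CPM in the PBS libraries. The groups overlapped, and IL-2 library 1 and PBS library 4 held the most. Of the 16 markers tested, edgeR called 0 changed, 1 had an unadjusted p below 0.05, and DESeq2 also called 0. In such bulk samples more macrophages and more RNA per macrophage cannot be told apart. The order of the IL-2 libraries by these markers was that of the first principal component, and the part of macrophage RNA in the results below was not tested. Each result that follows was also fitted without IL-2 library 1 and PBS library 4, and is qualified where that ended a call or moved a count by more than 1.5 times.

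The promoters of some genes that changed hold the letters to which STAT5 or Myc bind. STAT5 dimers are known to bind TTCNNNGAA and Myc-Max dimers CACGTG, and both motifs read the same on either strand. The stretches below show both motifs in genes described further down, with matches in capitals. They are from RefSeq (GRCm38.p6), 5′ to 3′ along the gene's strand.
Cish, chr9:107296589-107296688, plus strand: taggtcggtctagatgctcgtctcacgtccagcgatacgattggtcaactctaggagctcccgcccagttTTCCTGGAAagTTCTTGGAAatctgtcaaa
Lta, chr17:35205352-35205516, minus strand: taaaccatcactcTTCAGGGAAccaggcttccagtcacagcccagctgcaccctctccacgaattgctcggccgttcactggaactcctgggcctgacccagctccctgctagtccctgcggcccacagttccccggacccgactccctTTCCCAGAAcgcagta
Bcl6, chr16:23981353-23981463, minus strand: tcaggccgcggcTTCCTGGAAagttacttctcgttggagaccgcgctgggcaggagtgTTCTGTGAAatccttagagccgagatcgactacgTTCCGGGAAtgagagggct
Cdk4, chr10:127063350-127063534, plus strand: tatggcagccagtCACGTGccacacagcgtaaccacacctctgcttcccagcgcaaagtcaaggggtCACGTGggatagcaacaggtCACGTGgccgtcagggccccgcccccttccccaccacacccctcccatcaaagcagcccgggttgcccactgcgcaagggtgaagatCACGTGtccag
Nop2, chr6:125131783-125131882, plus strand: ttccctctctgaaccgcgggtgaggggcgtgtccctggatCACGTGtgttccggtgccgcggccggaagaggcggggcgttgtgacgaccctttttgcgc

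Cish has 2 matches 11 bases apart at its start, Lta 2 and Bcl6 3 matches to TTCNNNGAA, and Cdk4 has 4 and Nop2 has 1 match to CACGTG. Cish, Lta, Cdk4 and Nop2 rose after IL-2, and Bcl6 fell, so the STAT5 letters stood in promoter windows of genes of both directions. Of the protein-coding genes with a window, 2 or more matches to TTCNNNGAA were in 51 of all 9678 tested. They were in 15 of the 1015 that rose and in 1 of the 617 that fell, a count too small to set the falls apart. Bcl6 was that 1 gene, and another of its windows holds 1 match. Over all 32851 RefSeq windows of the same length (250 bases before to 50 after the start), 8.3% held TTCNNNGAA and 7.15% held CACGTG. Of the protein-coding genes with a window, TTCNNNGAA was in 11.2% of the 1015 that rose and in 7.46% of the 617 that fell, against 8.49% of all 9678 tested. CACGTG was in 18.4% of those that rose and in 10% of those that fell, against 11.5% of all tested. It was in 18.8% of the 117 ribosome assembly genes with a window and in 10% of the 60 cytosolic ribosomal protein genes. A match is only a run of letters and does not show binding.

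IL-2 changed 2360 of the 16643 genes tested, which is 14.2%. The genes that rose numbered 1397 (8.39%) and those that fell numbered 963 (5.79%). Of the called genes, 363 rose and 270 fell by 2-fold or more, and 45 rose and 16 fell by 4-fold or more. The largest rise among called genes with at least 5 CPM in the higher group was 15.5-fold (Lif) and the largest fall was to 0.236 of the PBS level (Arl5c). The IL-2 and PBS libraries did not overlap for 4262 of the genes tested (25.6%), among them 2330 of the 2360 called. The shares of 8.39% and 5.79% are the background against which the counts of each gene group are given.

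**Figure D1:**
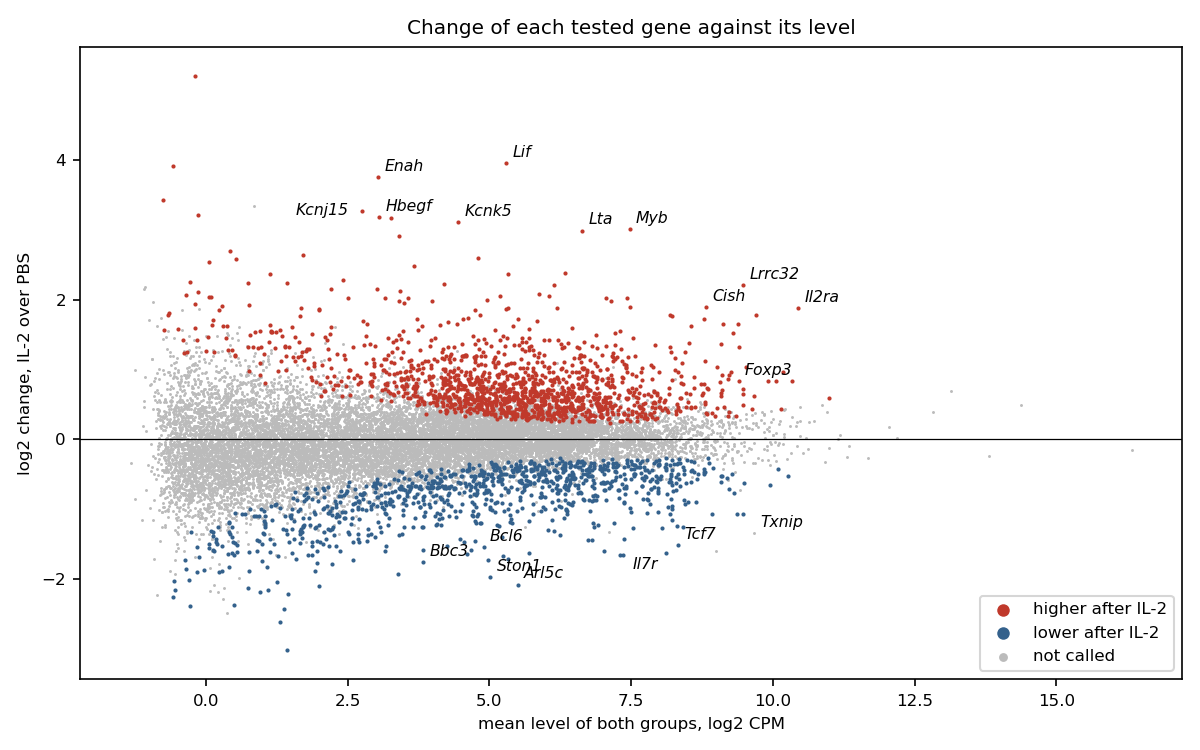
Each point is 1 of the 16643 genes tested, with its mean log2 CPM over both groups on the horizontal axis and its log2 change, IL-2 over PBS, on the vertical axis. Red genes (1397) were called higher and blue genes (963) lower after IL-2 at an adjusted p below 0.01. Lif stands at 3.96 and Arl5c at -2.08.

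The receptor and its feedback inhibitors were among the clearest changes. Il2ra, the chain that gives the receptor its high affinity, was at 2072, 2081, 2277 and 2337 CPM after IL-2, against 630, 586, 627 and 545 CPM after PBS. Il2rb, the signalling chain shared with the IL-15 receptor, was at 1694, 1631, 1435 and 1365 CPM after IL-2, against 839, 787, 717 and 796 CPM after PBS. Both genes were well above the PBS range in every IL-2 library. Il2ra rose 3.67-fold (log2 change 1.88, SE 0.09, adjusted p 1.72e-08) and Il2rb 1.95-fold (0.96, SE 0.09, adjusted p 5.11e-06). Il2rg was not called, with a log2 change of -0.10 (SE 0.08), at 207 CPM after IL-2 and 221 CPM after PBS. Stat5b fell to 208 CPM after IL-2, against 306 CPM after PBS (log2 change -0.56, SE 0.10). Stat5a was at -0.18 (SE 0.09), Jak1 at -0.29 (SE 0.08) and Jak3 at 0.02 (SE 0.12), none of them called. Of the 13 tested genes of the receptor and of JAK-STAT5 signalling, Il2ra and Il2rb were thus the 2 that rose.

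The genes Socs1, Socs2 and Cish of the SOCS family, whose proteins bind JAKs or the receptor and end the signal, all rose. Socs2 was at 98.6, 100, 135 and 128 CPM after IL-2, against 25.9, 25.2, 27.7 and 21.2 CPM after PBS. Socs1 was at 223, 199, 217 and 219 CPM after IL-2, against 58.3, 49.7, 49.6 and 52.3 CPM after PBS. Cish was at 638, 750, 708 and 746 CPM after IL-2, against 163, 199, 160 and 237 CPM after PBS. No IL-2 library of these 3 genes came near the PBS range. The rises were 4.62-fold for Socs2 (log2 change 2.21, SE 0.12, adjusted p 5.57e-08), 4.09-fold for Socs1 (2.03, SE 0.08, adjusted p 4.69e-09) and 3.74-fold for Cish (1.90, SE 0.12, adjusted p 1.29e-07). Socs3 did not pass, at 294 CPM after IL-2 and 180 CPM after PBS (log2 change 0.71, SE 0.19, adjusted p 0.0125). It passed without PBS library 1 (adjusted p 0.00941), without PBS library 4 (0.00908), or without IL-2 library 1 and PBS library 4 together (0.00955). Cblb, a ubiquitin ligase that restrains T cell activation, fell to 207 CPM after IL-2, against 354 CPM after PBS (log2 change -0.78, SE 0.12). Pim1 and Pim3, serine/threonine kinases that STAT5 is known to induce, rose 1.95-fold and 1.91-fold. Pim1 was at 404 to 452 CPM after IL-2 and 170 to 267 CPM after PBS. Pim2 was at 33.4 CPM after IL-2 and 22.8 CPM after PBS and was not called (log2 change 0.55, SE 0.15, adjusted p 0.0146), though it passed without PBS library 2 (0.00967) or PBS library 4 (0.00916).

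**Figure D2:**
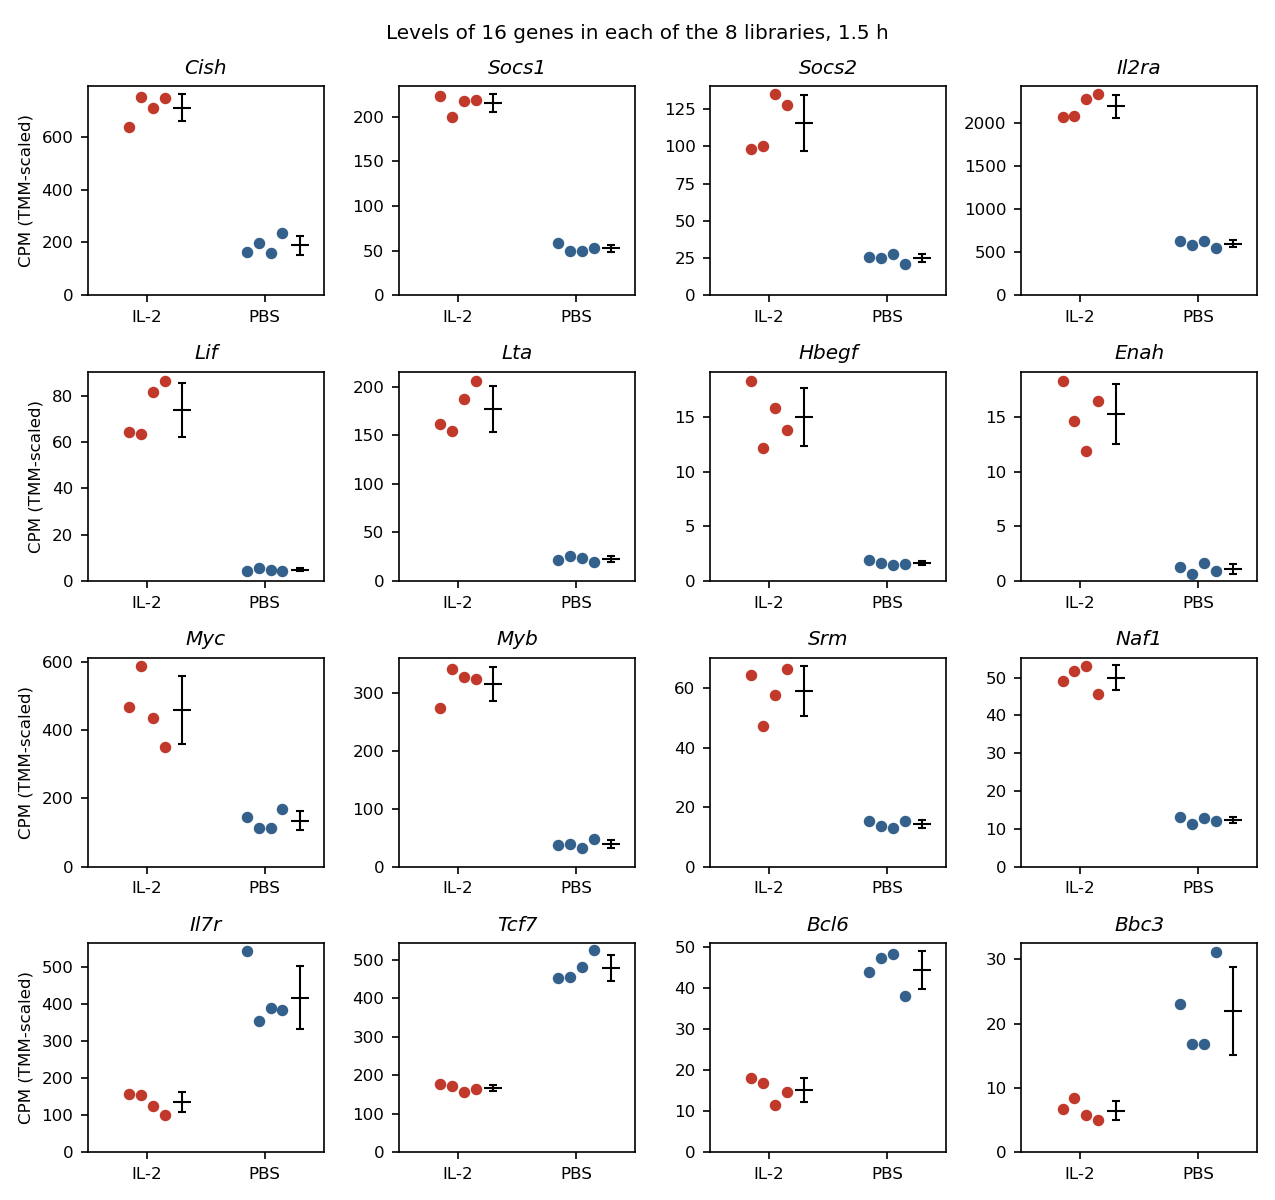
Level in CPM (vertical axes, from 0) of 16 genes in each library, IL-2 in red and PBS in blue, with the mean and SD of each group of 4 beside its points. The groups do not overlap for any of the 16 genes, with Il7r, Tcf7, Bcl6 and Bbc3 lower after IL-2. Over all 16643 genes tested they do not overlap for 4262 (25.6%), and some of the 16 were named by a rule that required it.

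Of 23 genes of secreted cytokines and growth factors tested, 8 rose, among them Lif, Lta, Hbegf and Osm, and 15 were not called. Lif had the largest rise of the genes with at least 5 CPM in the higher group. Lif, a cytokine that signals through gp130, was at 64.5, 63.4, 81.5 and 86.3 CPM after IL-2, against 4.09, 5.64, 4.93 and 4.40 CPM after PBS, a 15.5-fold rise (log2 change 3.96, SE 0.23, adjusted p 1.05e-07). Osm, which also signals through gp130, was at 105, 75.4, 95.0 and 102 CPM after IL-2, against 20.4, 23.5, 26.5 and 19.3 CPM after PBS (4.22-fold). Lta, the lymphotoxin that shapes lymphoid tissue, was at 162, 154, 187 and 206 CPM after IL-2, against 21.5, 25.6, 23.4 and 19.0 CPM after PBS (7.92-fold). In each of these 3 genes the lowest IL-2 library was far above the highest PBS library. Hbegf, a ligand of the EGF receptor, was at 18.3, 12.2, 15.8 and 13.8 CPM after IL-2, against 1.87, 1.62, 1.46 and 1.59 CPM after PBS (9.12-fold). Gzmb, a granule protease with which Tregs can kill target cells, rose to 10.7 ± 3.84 CPM after IL-2, against 4.11 ± 1.40 CPM after PBS (SD, n = 4 each). IL-2 library 1 was the highest for Gzmb, at 16.4 CPM.

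The other genes with the largest rises were of varied function. Enah, a regulator of actin filaments at the cell edge, was at 18.3, 14.7, 11.9 and 16.5 CPM after IL-2, against 1.32, 0.618, 1.62 and 0.910 CPM after PBS (13.6-fold). The potassium channel genes Kcnj15 and Kcnk5 rose 9.65-fold and 8.64-fold. Kcnk5 was at 36.0 to 44.4 CPM after IL-2 and 4.10 to 5.33 CPM after PBS. Evl, a paralog of Enah, fell to 117 CPM after IL-2, against 216 CPM after PBS, and Kcnn4, the calcium-activated potassium channel of T cells, fell to 115 CPM after IL-2, against 216 CPM after PBS. Myb, a transcription factor needed for the effector state of Tregs, was at 274, 341, 327 and 324 CPM after IL-2, against 37.7, 38.8, 32.8 and 47.5 CPM after PBS (8.06-fold). It was the most abundant of the 12 genes with the largest rises. Trib3, a pseudokinase, rose 7.51-fold, Gcsh, a subunit of the glycine cleavage system, 6.05-fold, and Dna2, a nuclease and helicase of DNA repair, 5.60-fold. Rragd, one of the Rag GTPases that tell mTORC1 of amino acids, rose 5.26-fold, to 106 to 157 CPM after IL-2, against 23.2 to 31.2 CPM after PBS. Dnah7a, a dynein heavy chain gene, rose 5.19-fold.

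The largest falls were smaller than the largest rises. Arl5c, a gene of an ARF-like GTPase, was at 15.6, 20.6, 17.9 and 15.1 CPM after IL-2, against 72.6, 71.9, 72.4 and 77.0 CPM after PBS (log2 change -2.08, SE 0.13, adjusted p 1.79e-07). Ston1 fell to 13.1 CPM after IL-2, against 51.7 CPM after PBS, Rflnb to 18.8 CPM, against 61.3 CPM, and Tent5c to 79.0 CPM, against 248 CPM. Dtx1, a regulator of Notch signalling tied to T cell anergy, fell to 76.0 CPM after IL-2, against 241 CPM after PBS. Pde2a, which breaks down cyclic nucleotides, fell to 2.80 CPM after IL-2, against 9.24 CPM after PBS, Gprc5b to 1.78 CPM, against 6.01 CPM, and Zfyve28 to 1.76 CPM, against 5.56 CPM. Arrdc3, an arrestin-like protein, fell to 18.1 ± 2.21 CPM after IL-2, against 57.6 ± 39.5 CPM after PBS (SD, n = 4 each). Its wide PBS spread came from PBS library 4, at 116 CPM, the other 3 being at 32.7 to 47.8 CPM, and the call held without that library.

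Myc and the machinery that makes ribosomes rose together. Myc was at 467, 589, 435 and 350 CPM after IL-2, against 146, 113, 114 and 168 CPM after PBS, a 3.40-fold rise (log2 change 1.77, SE 0.18, adjusted p 9.82e-06). Max, its partner in DNA binding, rose 1.48-fold. Mxd4 and Mxi1, which compete with Myc for Max, fell to 108 and 14.3 CPM after IL-2, against 261 and 23.3 CPM after PBS. Of the 139 tested genes of ribosome assembly (snoRNP proteins and the factors of the small and the large subunit), 110 rose, which is 79.1% against the background of 8.39%. edgeR called 0 of them lower, 0 had an unadjusted p below 0.05 in that direction, and DESeq2 called 0 lower as well. Their median log2 change was 0.72, against -0.01 over all genes tested, and 41 rose by 2-fold or more. The count was 16 of 20 for snoRNP proteins and their assembly factors, 44 of 54 for the small subunit and 50 of 65 for the large subunit.

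Naf1, which helps to build the snoRNPs that modify ribosomal RNA, was at 49.2, 51.8, 53.1 and 45.8 CPM after IL-2, against 11.4 to 13.1 CPM after PBS (4.01-fold). Nop2, the ribosomal RNA methyltransferase whose promoter is shown above, was at 121, 105, 102 and 117 CPM after IL-2, against 43.6, 41.9, 46.2 and 39.5 CPM after PBS (2.59-fold). Nolc1 rose 2.29-fold and Nop56, a core snoRNP protein, 2.28-fold. Of the small subunit factors, Rrp12 rose 2.73-fold, Noc4l 2.61-fold and Wdr75 2.12-fold. Tsr1 rose 2.60-fold, but it overlaps Srr on the other strand, and whether counting used the strand is not stated, so its value is uncertain. Of the large subunit factors, Rrp1b rose 2.64-fold, Mrto4 2.60-fold, Ppan 2.51-fold and Ftsj3 2.03-fold. Polr1b, the second largest subunit of RNA polymerase I, which transcribes ribosomal RNA, rose to 108 CPM after IL-2, against 40.4 CPM after PBS. Cd3eap, another subunit of that enzyme, rose 3.62-fold, and 12 of the 35 tested genes of RNA polymerases I and III rose in all.

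The genes of the ribosome's own proteins were tested as a list of their own. Of 81 cytosolic ribosomal protein genes, 2 rose, where the background is 8.39%, with a median log2 change of 0.26, and all 81 changes were positive. The 2 calls were lost without IL-2 library 1, IL-2 library 3, any of PBS libraries 1 to 3, or IL-2 library 1 and PBS library 4 together, and 4 genes were called without IL-2 library 2. The median of the ribosomal protein genes relative to the PBS mean was 0.50, -0.04, 0.55 and -0.08 in IL-2 libraries 1 to 4, against -0.11, 0.02, -0.07 and 0.15 in the PBS libraries. IL-2 libraries 1 and 3 were thus high and libraries 2 and 4 within the PBS range. IL-2 libraries 1 and 3 were also high for 41 replication-dependent histone genes, with medians of 0.54, -0.42, 0.69 and -0.36 after IL-2, against 0.03, -0.12, -0.06 and 0.18 after PBS. For these genes IL-2 libraries 2 and 4 lay below the PBS range. The split of the ribosomal protein genes was also seen over 295 protein-coding genes with a summed exon length below 1000 bases (0.34, -0.08, 0.39 and -0.07 after IL-2, against -0.08, 0.03, -0.07 and 0.15 after PBS). By the same measure, the median length was 1770 bases for the ribosomal protein genes and 572 bases for the histone genes. The median of protein-coding genes above 5000 bases was between -0.03 and 0.01 in every library. Ribosome assembly genes were far above the PBS range in all 4 IL-2 libraries, at 0.84, 0.67, 0.76 and 0.70, against -0.02, -0.00, -0.02 and 0.02 after PBS. IL-2 libraries 1 and 3 were again the highest, by a smaller margin. The lists of oxidative phosphorylation (0.49, 0.08, 0.52 and 0.14 in IL-2 libraries 1 to 4), proteasome (0.51, 0.15, 0.50 and 0.21) and chaperone genes (0.74, 0.27, 0.66 and 0.32), described below, were also higher in IL-2 libraries 1 and 3 than in 2 and 4. So were translation factors (0.53, 0.29, 0.47 and 0.29) and nucleotide and one-carbon genes (0.61, 0.36, 0.62 and 0.41). The same order was seen for mitochondrial ribosomal proteins (0.40, 0.11, 0.45 and 0.25) and mitochondrial import genes (0.45, 0.24, 0.49 and 0.36). Aminoacyl-tRNA synthetases did not follow it, at 0.60, 0.50, 0.44 and 0.48. The part of transcript length in these values was not tested.

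**Figure D3:**
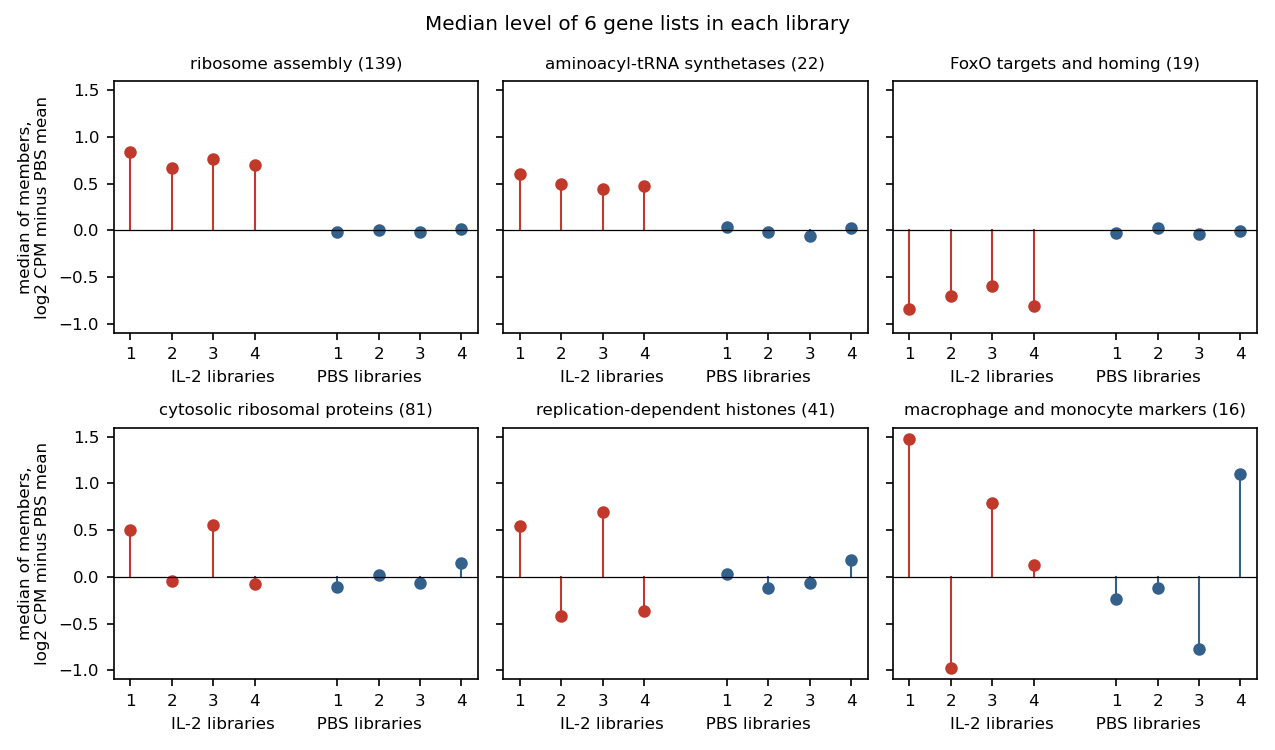
Median over the members of 6 gene lists of log2 CPM minus the gene's PBS mean, for each library (IL-2 in red, PBS in blue), with the number of tested members in each title. Ribosome assembly genes lie at 0.67 to 0.84 and FoxO targets at -0.84 to -0.59 in all 4 IL-2 libraries, whereas ribosomal protein and histone genes are high in IL-2 libraries 1 and 3 only among the IL-2 libraries, and macrophage markers vary within both groups.

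**Figure D4:**
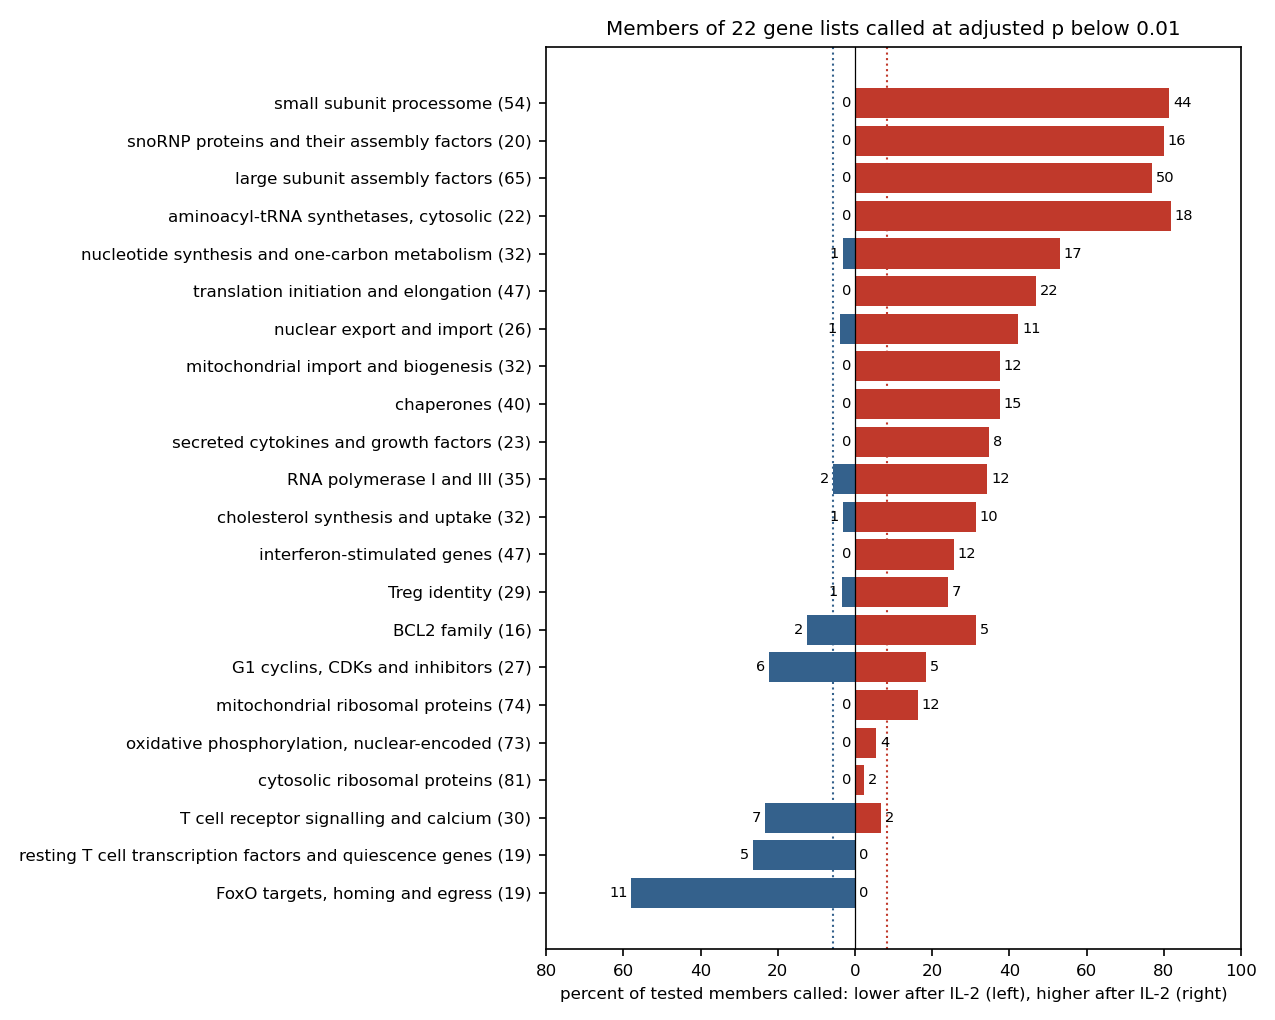
Share of the tested members (number in parentheses) of 22 gene lists called higher (red, right) or lower (blue, left) after IL-2, with the counts at the bar ends. Dotted lines mark the shares over all genes tested, 8.39% higher and 5.79% lower. Ribosome assembly lists and tRNA synthetases have most of their members on the right, and FoxO targets 11 of 19 on the left.

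Genes that supply and run translation rose as well. Of 22 cytosolic aminoacyl-tRNA synthetase genes, which charge tRNAs with amino acids, 18 rose, with a median log2 change of 0.55. Tars was at 118, 101, 112 and 106 CPM after IL-2, against 52.4, 49.5, 49.6 and 50.2 CPM after PBS (2.17-fold), Iars rose 1.96-fold and Rars 1.80-fold. Of 47 initiation and elongation factor genes, 22 rose, among them Eif2s1, the alpha subunit of eIF2 (1.95-fold), Eif4a1, an RNA helicase of initiation (1.85-fold), and Eif3b (1.65-fold). Amino acid transporters were mixed. Slc7a5, the large neutral amino acid transporter, was at 126, 105, 105 and 125 CPM after IL-2, against 32.5, 27.1, 31.5 and 33.7 CPM after PBS (3.69-fold). Slc7a1, which carries arginine and lysine, rose 2.26-fold and Slc7a6 1.53-fold, while Slc43a2 fell to 60.5 CPM after IL-2, against 116 CPM after PBS. Atf4, the factor that switches on amino acid synthesis and uptake, rose 1.51-fold. Psat1, of serine synthesis, rose 2.11-fold and Aldh18a1, of proline synthesis, 2.21-fold. Srm, which makes the polyamine spermidine, was at 64.5, 47.4, 57.8 and 66.3 CPM after IL-2, against 15.3, 13.6, 12.9 and 15.3 CPM after PBS (4.13-fold).

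Nucleotide synthesis followed the same direction, with 17 of 32 tested genes of nucleotide and one-carbon metabolism higher and a median log2 change of 0.54. Ctps, the enzyme that makes CTP, was at 55.5, 54.9, 51.5 and 60.1 CPM after IL-2, against 20.5, 18.6, 19.3 and 20.9 CPM after PBS (2.80-fold). Cad, which starts pyrimidine synthesis, rose 1.94-fold, Mthfd1, of the folate cycle, 1.87-fold, and Gart, of purine synthesis, 1.83-fold. Nuclear transport genes rose in 11 of 26 cases (background 8.39%), among them the importins Kpna2 (1.97-fold) and Ipo5 (1.75-fold).

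Energy and lipid metabolism changed in part. Hk2, which traps glucose in the cell, was at 39.5, 31.1, 34.0 and 37.8 CPM after IL-2, against 9.07, 9.43, 7.71 and 16.7 CPM after PBS (3.32-fold). The lactate transporter Slc16a1 rose 2.55-fold and the glycolytic enzyme Eno1 2.37-fold. In all, 6 of 28 tested genes of glycolysis and glucose transport rose (background 8.39%) and 4 fell (background 5.79%). The falls include Eno2, a paralog of Eno1, at 1.67 CPM after IL-2 and 4.08 CPM after PBS, and Slc16a3, another lactate transporter, at 10.3 CPM after IL-2 and 18.2 CPM after PBS. Pfkm, a phosphofructokinase gene, fell to 12.1 CPM after IL-2, against 17.3 CPM after PBS. Of the 4 falls, 1 remained called without IL-2 library 1, without IL-2 library 3, or without IL-2 library 1 and PBS library 4 together, and the calls of Eno2, Slc16a3 and Pfkm were lost in each of these fits. The count was 2 without IL-2 library 4 or without PBS library 1, 2 or 4. The glucose transporters named by the rule went opposite ways. Slc2a1 rose to 70.0 CPM after IL-2, against 40.5 CPM after PBS, and Slc2a3 fell to 59.3 CPM after IL-2, against 113 CPM after PBS. Of 32 genes of cholesterol synthesis and uptake, 10 rose (background 8.39%), and 6 did without IL-2 library 1 and PBS library 4. Hsd17b7 rose 1.97-fold and Cyp51 1.61-fold, both enzymes of the synthesis. Of 22 genes of fatty acid synthesis and oxidation, 3 rose and 1 fell, too few to set the list apart from the backgrounds of 8.39% and 5.79%. Fasn, the fatty acid synthase, rose to 338 CPM after IL-2, against 172 CPM after PBS (1.96-fold). Scd2, a fatty acid desaturase, fell to 41.4 CPM after IL-2, against 81.3 CPM after PBS (log2 change -0.97, SE 0.12).

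Of 32 genes of mitochondrial import and biogenesis, 12 rose, among them Pprc1, a coactivator of the PGC-1 family (2.93-fold), Timm9, a chaperone of the intermembrane space (2.73-fold), C1qbp (2.43-fold) and Phb (2.16-fold). Of 73 nuclear-encoded genes of oxidative phosphorylation, 4 rose, among them Cycs, cytochrome c (1.91-fold), a share not above the background of 8.39%. That count was 1 without IL-2 library 1 or any of PBS libraries 1 to 3, 2 without IL-2 library 3 or without IL-2 library 1 and PBS library 4 together, and 8 without IL-2 library 2. Of the 73 changes 69 were positive, with a median log2 change of 0.32. At an unadjusted p below 0.05 in edgeR, 39 were higher and 1 was lower. Of 74 mitochondrial ribosomal protein genes 12 rose (background 8.39%), and 5 did without PBS library 2. Chaperone genes rose in 15 of 40 cases, but in 9 without IL-2 library 3 or without PBS library 1, and in 8 without IL-2 library 1 and PBS library 4. Those that rose include Dnajc2, a chaperone at the ribosome (2.02-fold), and Hspa9, of the mitochondrial matrix (1.88-fold). Of 37 proteasome genes 10 rose, Psme3 by 1.52-fold, and 3 to 5 did without any one of IL-2 libraries 1 and 3 and PBS libraries 1 to 3, or without IL-2 library 1 and PBS library 4 together.

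Genes of the BCL2 family, which sets cell survival, changed in both directions. Bcl2, which blocks cell death, was at 921, 1142, 1005 and 903 CPM after IL-2, against 556, 435, 495 and 440 CPM after PBS (log2 change 1.04, SE 0.12). Bcl2l1, which encodes the protective BCL-XL, was at 80.7, 70.3, 81.0 and 79.4 CPM after IL-2, against 34.6, 34.3, 35.5 and 39.8 CPM after PBS (2.16-fold). Mcl1, of the same role, did not pass, at 832 CPM after IL-2 and 649 CPM after PBS (log2 change 0.36, SE 0.13, adjusted p 0.0524). The death-promoting members Bbc3 (PUMA) and Bcl2l11 (BIM) fell. Bbc3 was at 6.79, 8.39, 5.76 and 5.05 CPM after IL-2, against 23.1, 16.9, 16.9 and 31.2 CPM after PBS (log2 change -1.76, SE 0.22). Bcl2l11 was at 74.8, 96.8, 59.0 and 47.1 CPM after IL-2, against 195, 136, 131 and 175 CPM after PBS (-1.20, SE 0.21). Bid and Bax, which also promote death, rose 1.51-fold and 1.34-fold, though the call of Bax was lost without IL-2 library 1 or 3, without any of PBS libraries 1 to 3, or without IL-2 library 1 and PBS library 4 together. In all, 5 of 16 family members rose (background 8.39%) and 2 fell (background 5.79%). The rises numbered 3 without any one of IL-2 libraries 1 and 3 or PBS libraries 1 to 3. They also numbered 3 without IL-2 library 1 and PBS library 4 together.

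Genes of the G1 phase of the cell cycle also changed in both directions. Cdk6 was at 444, 437, 442 and 477 CPM after IL-2, against 124, 120, 133 and 147 CPM after PBS (3.43-fold). Its partner Ccnd2, the cyclin D2 gene, rose 1.79-fold and Cdk4, whose promoter is shown above, 1.50-fold. Ccnd3 fell to 268 CPM after IL-2, against 375 CPM after PBS. The inhibitor Cdkn1b (p27) fell to 156 CPM after IL-2, against 281 CPM after PBS, and Rbl2, a pocket protein of resting cells, to 119 CPM, against 178 CPM. E2f2 fell to 14.3 CPM after IL-2, against 39.3 CPM after PBS. Mki67, a gene of dividing cells, was not called, at 43.8 ± 4.24 CPM after IL-2 and 49.3 ± 6.23 CPM after PBS (SD, n = 4 each). The 39 tested genes of DNA replication had a median log2 change of -0.03 and lay between -0.51 and 0.59.

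Of 29 Treg identity genes, 7 rose (background 8.39%) and 1 fell (background 5.79%). Foxp3, whose reporter defined the sort, was at 801, 929, 773 and 944 CPM after IL-2, against 502, 451, 454 and 526 CPM after PBS (1.78-fold, adjusted p 1.16e-05). Lrrc32, which encodes GARP, the surface anchor of latent TGF-beta, was at 1127, 1188, 1141 and 1223 CPM after IL-2, against 221, 225, 235 and 330 CPM after PBS (4.63-fold). Gpr83 was at 521, 519, 515 and 562 CPM after IL-2, against 279, 176, 188 and 171 CPM after PBS (2.60-fold). These 3 genes were apart from the PBS range in all 4 IL-2 libraries. Izumo1r, the folate receptor 4 gene, rose 1.56-fold and Ikzf3 (Aiolos) fell to 293 CPM after IL-2, against 396 CPM after PBS. Ikzf2 (Helios) did not pass, at 1337 CPM after IL-2 and 997 CPM after PBS (adjusted p 0.0117), though it passed without PBS library 3 (adjusted p 0.00895). Ctla4 was not called, at 76.1 ± 20.5 CPM after IL-2 and 98.4 ± 35.5 CPM after PBS (SD, n = 4 each). Of the factors of effector T cells, Irf4 rose to 111 CPM after IL-2, against 65.1 CPM after PBS, and Ahr to 56.8 CPM, against 30.9 CPM.

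Of 19 transcription factors and quiescence genes of resting T cells, 5 fell and 14 were not called, with a median log2 change of -0.29. Tcf7, which encodes the transcription factor TCF-1, was at 177, 172, 156 and 164 CPM after IL-2, against 452, 454, 480 and 524 CPM after PBS (log2 change -1.51, SE 0.10, adjusted p 2.67e-07). Bcl6, the repressor that drives follicular T cells and that STAT5 is known to oppose, was at 18.1, 16.9, 11.5 and 14.6 CPM after IL-2, against 43.9, 47.4, 48.2 and 38.0 CPM after PBS (-1.54, SE 0.16). Klf3 fell to 154 CPM after IL-2, against 371 CPM after PBS, and Foxo1 to 235 CPM, against 357 CPM. The background for falls is 5.79%, and 8 of the 19 genes fell without PBS library 4.

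Targets of FoxO factors and genes of homing and egress fell. Of 19 tested, 11 fell, where the background is 5.79%, and all 19 changes were negative, with a median log2 change of -0.75. edgeR called 0 higher, 0 had an unadjusted p below 0.05 in that direction, and DESeq2 called 0 higher. The list was drawn up with earlier results of these data known, so its direction is a description. Il7r, the IL-7 receptor chain, was at 158, 156, 125 and 102 CPM after IL-2, against 542, 354, 389 and 383 CPM after PBS (log2 change -1.62, SE 0.18). Sesn1, a restraint on mTORC1, was at 54.2, 61.3, 62.0 and 52.3 CPM after IL-2, against 157, 150, 152 and 165 CPM after PBS (-1.44, SE 0.07). Pik3ip1, an inhibitor of PI3K, was at 82.2, 77.5, 51.7 and 49.6 CPM after IL-2, against 234, 127, 140 and 283 CPM after PBS (-1.59, SE 0.25). For each of the 3 the highest IL-2 library was below the lowest PBS library. Ccng2 fell to 31.8 CPM after IL-2, against 71.5 CPM after PBS. Itga4, an integrin chain of homing, fell to 469 CPM after IL-2, against 799 CPM after PBS, Cd27 to 143 CPM, against 241 CPM, and Ccr7, the receptor for entry to lymph nodes, to 117 CPM, against 193 CPM. S1pr1, the receptor for exit from lymph nodes, was not called, with a log2 change of -0.19 (SE 0.09). Txnip, which limits glucose uptake, was at 517, 591, 375 and 351 CPM after IL-2, against 946, 534, 554 and 2611 CPM after PBS. Its groups overlapped, PBS library 4 being far above the others, and it was not called (adjusted p 0.0297).

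Of 18 genes of MAPK phosphatases and RAS-ERK feedback, 6 rose (background 8.39%) and 2 fell (background 5.79%). With any one of IL-2 libraries 1, 3 and 4 or of the PBS libraries left out, 1 fell, not above that background. Spred1, an inhibitor of RAS activation, was at 70.5 to 96.4 CPM after IL-2, against a mean of 26.8 CPM after PBS (3.25-fold). Spry1, another inhibitor, rose 2.42-fold, Spred2 1.57-fold and Rasgrp1, an activator of RAS, 1.76-fold. Dusp2, a phosphatase of MAP kinases, fell to 89.4 CPM after IL-2, against 205 CPM after PBS. In the NF-kappaB pathway, Map3k8 (TPL2), a kinase upstream of ERK, was at 235, 199, 209 and 256 CPM after IL-2, against 62.1, 53.3, 51.9 and 58.5 CPM after PBS (3.98-fold). Nfkbiz, a nuclear IkappaB protein, rose 2.51-fold and was highest in IL-2 library 2, at 1405 CPM. Nfkbie, an inhibitor of NF-kappaB, fell to 36.9 CPM after IL-2, against 60.6 CPM after PBS. Of 30 genes of T cell receptor signalling and calcium, 7 fell (background 5.79%) and 2 rose (background 8.39%). Cd5, a brake on the receptor, fell to 203 CPM after IL-2, against 391 CPM after PBS, and the costimulator Cd28 to 16.5 CPM, against 38.0 CPM. The kinase gene Fyn rose to 658 CPM after IL-2, against 426 CPM after PBS. Of the immediate early genes, Srf rose 1.33-fold, to 89.7 to 97.9 CPM after IL-2, against 68.8 to 73.5 CPM after PBS.

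Receptors of other cytokines changed in both directions, 8 of 36 rising (background 8.39%) and 4 falling (background 5.79%). Il10ra rose to 229 CPM after IL-2, against 113 CPM after PBS, and Il18r1 to 151 CPM, against 84.8 CPM. Il1rl1, the receptor for IL-33 that marks tissue Tregs, rose 1.84-fold. Ifnar1, a chain of the type I interferon receptor, fell to 169 CPM after IL-2, against 247 CPM after PBS, and Tgfbr2 to 235 CPM, against 311 CPM. Of 47 interferon-stimulated genes 12 rose (background 8.39%). Isg20 was at 39.2, 35.7, 36.9 and 35.8 CPM after IL-2, against 16.2, 16.2, 15.3 and 17.5 CPM after PBS (2.26-fold), Rtp4 rose 1.83-fold, Stat2 1.64-fold and the GTPase gene Igtp by 0.68 on the log2 scale. Among chromatin regulators, Ezh2, the methyltransferase of Polycomb complex PRC2, was at 94.3, 105, 122 and 123 CPM after IL-2, against 46.3, 50.2, 48.5 and 34.4 CPM after PBS (2.47-fold). Prmt5, an arginine methyltransferase, rose 1.51-fold, while the DNA methyltransferase gene Dnmt3a fell to 164 CPM after IL-2, against 210 CPM after PBS, and Hdac5 to 19.7 CPM, against 31.3 CPM. Xbp1, a factor of the unfolded protein response on the plasma cell marker list, was at 339, 260, 278 and 229 CPM after IL-2, against 66.0, 66.5, 63.7 and 74.9 CPM after PBS (4.08-fold). Of the 3 plasma cell markers tested it was the only one called.

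The libraries labelled as in vitro came from another table, with 19471966 to 24765621 counted reads, and each table kept its own PBS libraries. The labels do not describe the culture, and the column names carry another date, so that batch and setting cannot be told apart. In culture, 1231 genes rose (7.40%) and 1087 fell (6.54%) of 16629 tested. The spread between libraries was much smaller there, with a common biological variation of 4.48%, against 16.3% in animals. Of the 15789 genes tested in both, 2320 were called in animals and 2270 in culture, and 815 were called in the same direction in both (35.1% of the calls in animals and 35.9% of those in culture). A further 55 were called in opposite directions. The change in animals minus that in culture was called for 848 of 16404 genes (5.17%), of which 510 were higher in animals (3.11%). That fit shared the spread of each gene between the settings, with a common biological variation of 13.1%. Its SEs and p-values thus do not keep the wider spread in animals apart. An SE of a difference can be below that of the change in animals, as for Lif (0.17 against 0.23). With any one of culture IL-2 libraries 1 to 3 or culture PBS libraries 2 and 3 left out, the count of 848 was 513 to 564 and the count of 510 was 300 to 342.

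**Figure D5:**
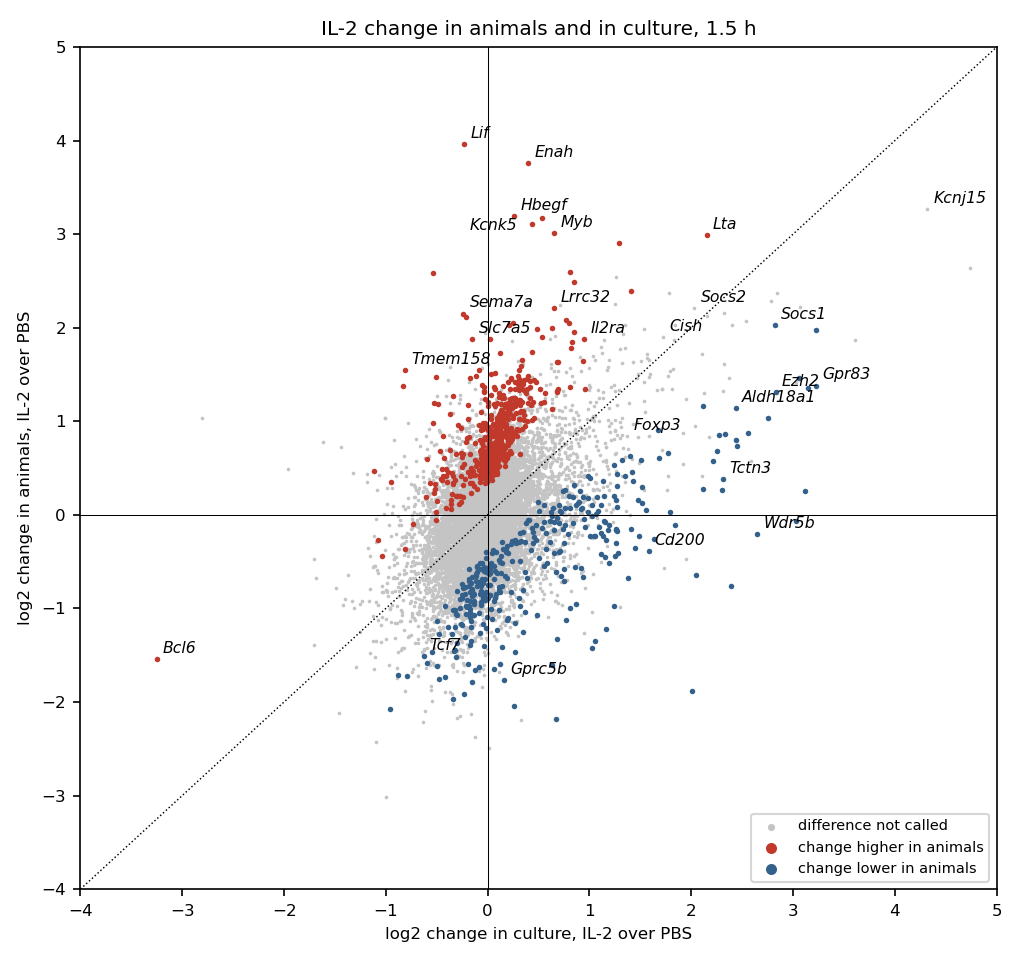
Log2 change, IL-2 over PBS, of 15789 genes in animals (vertical axis) against that in culture (horizontal axis), with a dotted line of equal change. Red and blue genes had a change called higher or lower in animals than in culture. Lif lies at 3.96 in animals and -0.23 in culture, and Cish near the line at 1.90 and 1.72.

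The STAT5 feedback genes rose in both settings. Cish had a log2 change of 1.90 in animals and 1.72 in culture, and Socs2 2.21 in animals and 2.03 in culture. Their differences of 0.21 (SE 0.15) and 0.20 (SE 0.17) were not called, which does not show that they are equal. Socs1 rose less in animals, by 2.03 against 2.82 in culture (difference -0.76, SE 0.10, adjusted p 0.000116). Il2ra rose more in animals, by 1.88 against 0.95 (difference 0.95, SE 0.10). Myc (1.77 and 1.30) and Bcl2 (1.04 and 1.32) had no called difference. Foxp3 rose by 0.84 in animals and 1.37 in culture, with a difference of -0.51 (SE 0.12, adjusted p 0.0105) that passed without IL-2 library 2 (0.00622) or IL-2 library 4 (0.00582). Kcnj15 was high in both, at 3.27 in animals and 4.32 in culture, a difference called by DESeq2 only.

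Other genes differed widely between the settings. Lif, which rose 15.5-fold in animals, was at 41.7, 46.7 and 44.0 CPM after IL-2 in culture, against 52.2, 51.4 and 51.7 CPM after PBS there, a log2 change of -0.23 and a difference of 4.21 (SE 0.17, adjusted p 1.26e-09). Its PBS level was thus already high in culture, though levels of the 2 tables were scaled apart. Enah (difference 3.39, SE 0.43), Hbegf (2.95, SE 0.25) and Kcnk5 (2.70, SE 0.18) were at log2 changes of 0.40, 0.26 and 0.44 in culture. Myb rose by 3.01 in animals and 0.65 in culture (difference 2.38, SE 0.14). Slc7a5 was at -0.15 in culture, at 97.1 to 99.9 CPM after IL-2, against 105 to 116 CPM after PBS (difference 2.05, SE 0.12). Sema7a, a membrane-anchored semaphorin, rose by 2.15 in animals and was at -0.24 in culture (difference 2.41, SE 0.26). Tmem158 rose by 1.55 in animals and fell by 0.81 in culture (difference 2.39, SE 0.19). These 8 were the largest differences in that direction by the rule for named genes.

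In the same direction were Pim1 and Pim3, at 0.96 and 0.93 in animals and -0.29 and -0.26 in culture, with differences of 1.27 and 1.22. Lrrc32 rose by 2.21 in animals and 0.65 in culture (difference 1.58), Bcl2l1 was at 1.11 and 0.14 (0.99), Lta at 2.99 and 2.15 (0.86), Spry1 at 1.27 and -0.34 (1.63) and Xbp1 at 2.03 and 0.21 (1.84). Ribosome assembly genes stood out as a group. In culture 33 of the 139 rose and 2 fell, with a median log2 change of 0.14, against 110 risen and a median of 0.72 in animals. The difference was called higher in animals for 84 of the 139 (background 3.11%). For aminoacyl-tRNA synthetases it was called higher in animals for 10 of 22, and in culture 3 of these genes rose and 1 fell.

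Other genes had a lower change in animals than in culture, most of them by rising in culture. Wdr5b rose by 2.65 in culture and was at -0.21 in animals (difference -2.84, SE 0.17). Cd200, a ligand that restrains myeloid cells, was at -0.39 in animals and 1.58 in culture (-1.95, SE 0.12), and Fas, the death receptor, at -0.26 in animals and 1.63 in culture (-1.87, SE 0.14). Tctn3 was at 0.38 and 2.31 (-1.91, SE 0.19) and Gpr34 at 0.28 and 2.12 (-1.82, SE 0.27). Gpr83 rose in both, by 1.38 in animals and 3.23 in culture (-1.83, SE 0.18). Ceacam15 was at -1.12 in animals and 0.77 in culture (-1.87, SE 0.27), and its fall in animals was not called without IL-2 library 1 (adjusted p 0.0100) or without IL-2 library 1 and PBS library 4 (0.0197). Gprc5b was at -1.77 in animals and 0.16 in culture (-1.91, SE 0.36), a difference that was lost without culture IL-2 library 1 (adjusted p 0.0133), culture PBS library 1 (0.0104) or culture PBS library 2 (0.0111). The change was also lower in animals for Ezh2 (-1.5), Aldh18a1 (-1.27) and Mcl1 (-0.75).

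The falls of resting-state genes differed too. Bcl6 fell more in culture, to 31.9 to 34.0 CPM after IL-2, against 306 to 320 CPM after PBS, a log2 change of -3.25, against -1.54 in animals (difference 1.73, SE 0.16). Tcf7 and Klf3 fell more in animals, by 1.51 and 1.27, than in culture, by 0.63 and 0.35 (differences -0.86 and -0.89). Of the 19 FoxO target, homing and egress genes, 10 fell and 2 rose in culture, where the median log2 change was -0.15.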

How the data were processed

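Total RNA of sorted splenic Tregs was column purified, depleted of ribosomal RNA and sequenced, per the labels' protocols. The deposited files hold raw read counts, which the authors made with STAR 2.5.0 and featureCounts 1.5.0 on GRCm38, per the submitters' processing notes. Whether counting used strand is not stated. Every gene kept had over 0.5 CPM in at least 3 columns, checked on the values. Of 18165 gene IDs, 18111 were matched to symbols (GENCODE M21).

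The 12 libraries of the 1.5 h table (IL-2, FP, PBS) were fitted with edgeR 4.0.16 (limma 3.58.1, R 4.3.3): TMM, filterByExpr, 1 mean per group, 2-sided quasi-likelihood F test, called at an adjusted p below 0.01. SE was taken as |log2 change| over the root of F. Culture libraries, both runs summed, were fitted alone and, for the difference of changes, jointly with the animal libraries. The joint fit shared the spread of each gene between the settings. The fits were tested on simulated data. Library totals of 12212262 to 15325053 reads limit the precision of genes at a few CPM.

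Genes were named by a rule: the 12 largest rises and falls among called genes with at least 5 CPM in the higher group and no overlap of groups, up to 4 members per list and direction by smallest p, any member of a list of at most 20, a fixed panel, and the 8 largest differences between animals and culture each way, for which overlap was not examined. Orm1, among the 12 falls, and many list members that the rule allows are not reported here. Those printed were chosen after their values were seen, so they lean towards calls that held. Members, lists and markers were chosen with earlier results of these data known. Alternatives were DESeq2 1.42.0, RLE factors, no low-count filter, IL-2 and PBS libraries only, a replicate block and each library left out. Leaving out IL-2 library 1 and PBS library 4 together was added after seeing the data.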

Additional observations from a re-analysis of the deposited data

Results flagged for a closer look

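In groups of 4 libraries, 20 of 354 had a highest or lowest library far from the other 3, where chance gives about 1 in 20. Of these, 10 were PBS library 4, which was the highest for Stat5a (146 CPM), Stat5b (384), Arl5c (77.0), Ppan (52.2), Ipo5 (109), Lrrc32 (330), Ccr7 (270) and Tgfbr2 (340) and the lowest for Wdr75 (41.6) and Pprc1 (69.4). PBS library 1 was the highest for Gpr83 (279 CPM). IL-2 library 2 was the lowest for Gcsh (41.8 CPM), Tsr1 (111), Bcl2l1 (70.3) and Cdk4 (73.1) and the highest for Cblb (266). IL-2 library 1 was the highest for Gzmb (16.4 CPM) and Rflnb (22.3), IL-2 library 3 for Dnah7a (89.9) and IL-2 library 4 for Gpr83 (562). The calls of these genes held without the library named, except that Stat5a was not called in any fit.

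The difference between the change in animals and that in culture was called for 31 of the 37 named genes examined. Over all genes it was called for 848 of 16404 (5.17%). Some of the 37 were named for having the largest called differences in each direction. The count of 31 was thus fixed in part by that choice and does not measure how common such differences are. The log2 difference, animals minus culture, was positive for Lif (4.21), Enah (3.39), Hbegf (2.95), Kcnk5 (2.70), Sema7a (2.41), Tmem158 (2.39), Myb (2.38), Slc7a5 (2.05), Xbp1 (1.84), Bcl6 (1.73), Spry1 (1.63), Lrrc32 (1.58), Pim1 (1.27), Pim3 (1.22), Bcl2l1 (0.99), Il2ra (0.95) and Lta (0.86). It was negative for Wdr5b (-2.84), Cd200 (-1.95), Tctn3 (-1.91), Gprc5b (-1.91), Fas (-1.87), Ceacam15 (-1.87), Gpr83 (-1.83), Gpr34 (-1.82), Ezh2 (-1.5), Aldh18a1 (-1.27), Klf3 (-0.89), Tcf7 (-0.86), Socs1 (-0.76) and Mcl1 (-0.75).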

How the results depend on the processing

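Of 2360 genes called in animals, RLE factors shared 2346, DESeq2 2356 and the fit of IL-2 and PBS libraries alone 1812, all in the same direction. DESeq2 called 3052 genes. Among named genes not called in the main fit, it called Socs3 (adjusted p 0.00157), Pim2 (0.00332), Ikzf2 (0.00173), Jak1 (0.00395) and Cd200 (0.00675). It also called the differences between animals and culture of Foxp3 (adjusted p 0.000276) and of Kcnj15 (-1.04, adjusted p 0.00898). With 1 library left out, 1642 to 2416 genes were called, 1038 to 1412 higher and 580 to 1004 lower; the lowest counts of falls were 580 without IL-2 library 3 and 628 without IL-2 library 1. For the difference between animals and culture, 513 to 1126 genes were called with 1 library left out (848 with all), 300 to 671 higher in animals (510 with all) and 206 to 470 lower (338 with all); DESeq2 called 567 lower. The causes were not tested.

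Same-numbered IL-2 and PBS libraries correlated at -0.13, 0.17, 0.03 and 0.01 in their deviations from the group means, so the numbers do not pair the libraries. With a replicate block, 2333 genes were called in animals, 2116 of them called without it, and 337 differences were higher in animals. Lta's difference between animals and culture then had an adjusted p of 0.0145. Jak3, at 0.02 with all libraries and not called in any fit, was the only named gene whose sign turned. Its log2 change was -0.04 when IL-2 library 2 was left out, -0.05 for IL-2 library 4, -0.01 for PBS library 3, -0.00 for PBS library 4 and at most 0.10 for the others. In animals, 5 named genes lost their call under at least 1 alternative: Ceacam15, Slc16a3, Eno2, Pfkm and Bax. Genes at a few CPM are limited by counting error at these depths.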
